A study of Homo sapiens with 6 samples.

Results

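Amino acid transporters were examined in HCT116 cells, an established line from a poorly differentiated colon carcinoma, after knockdown of TRIM21, an E3 ubiquitin ligase and intracellular antibody receptor. The members were all rows of the count table whose symbol belongs to the SLC1, SLC3, SLC7, SLC36, SLC38 or SLC43 carrier families, together with SLC16A10, an aromatic amino acid carrier from another family. The rule found 41 of 28278 symbols. The series holds 3 libraries from cells infected with a lentivirus carrying an shRNA against TRIM21 (shTRIM21), which were set against 3 libraries from cells that received a scrambled shRNA the same way (shControl, which the labels also call WT). All cells were selected with puromycin at 5 µg/ml, added 36 h after infection, and were collected at day 21. Total RNA was depleted of ribosomal RNA before library preparation. In the labels the libraries are biological replicates, with no word on whether each had its own culture. The p-values therefore measure only how far these samples spread, which may be technical. Whether the cells were a pool or 1 clone, and whether more than 1 shRNA sequence was used, is not given in the sources used here.

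Free amino acids are charged and cross membranes through carriers. Some SLC7 carriers are light chains that reach the cell surface only when joined to an SLC3 heavy chain, while SLC1 carriers and many SLC38 carriers use the sodium gradient. In the SLC36 family SLC36A1 and SLC36A2 move amino acids together with protons, whereas transport by SLC36A4 is not coupled to protons. Fast-growing cells rely on uptake of glutamine and leucine, and the leucine and arginine that enter the cell or leave the lysosome are sensed by the mTORC1 kinase pathway.

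The libraries held 25842818, 22656160 and 25220745 counts in shTRIM21 cells, and 25078521, 24646400 and 27123657 counts in shControl cells. TRIM21 itself was at 8.83, 8.18 and 6.68 CPM (counts scaled to a common library size after TMM normalization) in shTRIM21 cells, against 11.8, 11.7 and 15.8 CPM in shControl cells. Its log2 fold change was -0.73 (SE 0.17, adjusted p = 0.0124, the quasi-likelihood test of edgeR, Benjamini-Hochberg adjustment over 14002 genes), so the targeted transcript was reduced and not absent. Without shTRIM21 replicate 3 the value was -0.62 (adjusted p = 0.0734). Leaving out both replicates numbered 3 gave -0.45 (adjusted p = 0.114). Of 12 colon epithelial markers, CDX1 was at 0 in every library. KRT20, ESRP1 and CDH17 stayed at or below 0.327, 0.235 and 1.24 CPM in every library, and CDH1 at or below 5.11 CPM. The summed level of the 12 ran from 480 to 515 CPM in shTRIM21 cells and from 487 to 494 CPM in shControl cells. DSG2 gave the largest part of it, with means of 282 CPM in shTRIM21 cells and 254 CPM in shControl cells. Over all libraries KRT18 ran from 68.9 to 81.2 CPM, ESRP2 from 44.4 to 48.5 and KRT8 from 36.7 to 47.7. VIL1 ran from 30.7 to 35.1 CPM, EPCAM from 16.6 to 21.1 and CDX2 from 7.03 to 11.9. The sum therefore says little about the markers at low levels. Summed fibroblast, endothelial and leukocyte markers stayed at or below 0.155, 0.232 and 0.135 CPM in shTRIM21 cells and at or below 0.320, 0.286 and 0.409 CPM in shControl cells.

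Of the 41 transporters, 28 had at least 1 count and 25 passed the filter on low counts. The 25 tested members held 4 that fell in shTRIM21 cells, 0 that rose and 21 that did not pass the test at an adjusted p of 0.05. Over all tested genes 1272 passed, which is 9.08%, with 4.66% lower and 4.43% higher. The groups did not overlap for 7 tested members, 2 higher and 5 lower in shTRIM21 cells, a share close to the 28.1% of all tested genes. In log2 fold change the 25 members had a median of -0.03, against 0.01 over all tested genes, and their median absolute log2 fold change was 0.12, against 0.16 over all tested genes. An added fit with offsets for GC content and transcript length, chosen after seeing the data, passed 7 of the 25 members, 2 higher and 5 lower. In that fit 1843 of 13175 genes passed, which is 14%, with 7.18% lower and 6.81% higher. SLC16A10 is the 1 member named singly by the rule, and its change was already known from these libraries when the rule was written; 3 of the other 24 tested members fell.

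**Figure D1:**
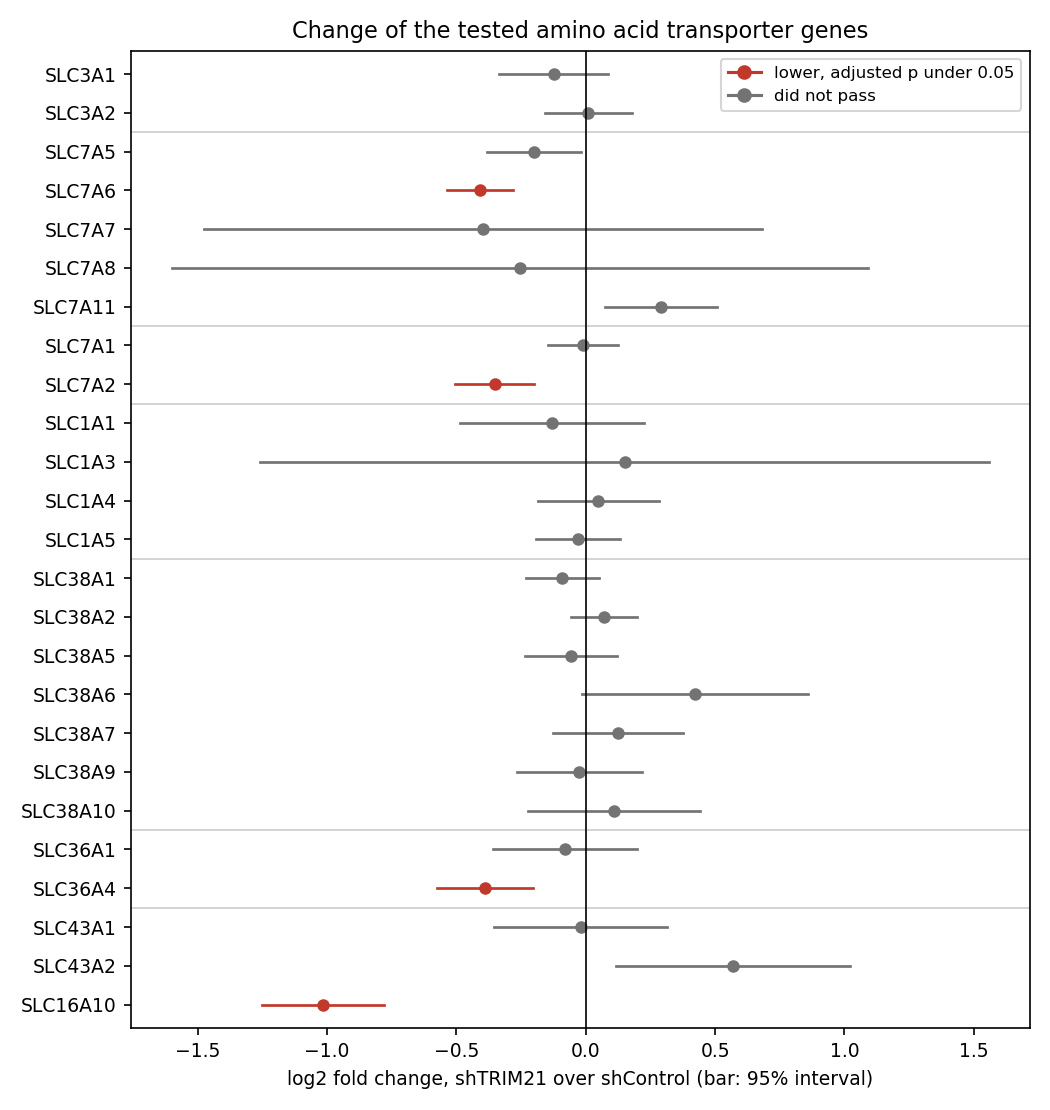
Log2 fold change (shTRIM21 over shControl) of the 25 tested amino acid transporters with 95% confidence intervals, from edgeR's quasi-likelihood fit. The members run from -1.02 for SLC16A10 to 0.57 for SLC43A2, and the 4 that passed the test all lie below 0.

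SLC16A10, also called TAT1, is a uniporter that lets tryptophan, tyrosine and phenylalanine pass down their gradients. It lies on the plus strand at chr6:111087503-111231194 (GRCh38, ENSG00000112394). SLC16A10 stood at 15.42, 17.66 and 16.96 CPM in shTRIM21 cells, against 34.64, 30.52 and 36.03 CPM in shControl cells. All shTRIM21 values were below all shControl values, with a wide gap between the groups. The means were 16.7 ± 1.14 CPM in shTRIM21 cells and 33.7 ± 2.87 CPM in shControl cells (SD, n = 3 each). Its log2 fold change of -1.02 (SE 0.11, adjusted p = 9.20e-06, edgeR) leaves it at 49.4% of the shControl level.

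SLC7A6, or y+LAT2, is a light chain of SLC3A2 that exchanges arginine and other cationic amino acids inside the cell for glutamine or leucine outside with sodium. It lies on the plus strand at chr16:68264516-68301823. SLC7A6 was at 157, 165 and 155 CPM in shTRIM21 cells, against 215, 207 and 210 CPM in shControl cells, and the groups did not overlap. SLC7A6 fell to 75.3% of the shControl level (log2 fold change -0.41, SE 0.06, adjusted p = 0.000277, edgeR). The gene shares 3371 exon bases, 44.43% of its exon length, with SLC7A6OS on the opposite strand. SLC7A6OS, a protein-coding neighbour, was at 118, 129 and 120 CPM in shTRIM21 cells and 161, 153 and 161 CPM in shControl cells (log2 fold change -0.38, adjusted p = 0.00109, edgeR). Whether the counting used strand is not given in the sources used here, so reads of the shared bases cannot be told apart and both values are uncertain.

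SLC36A4, or PAT4, is a carrier with high affinity for proline and tryptophan, and lies on the minus strand at chr11:93144171-93197964. SLC36A4 was at 47.7, 40.3 and 47.6 CPM in shTRIM21 cells, against 58.4, 56.3 and 62.8 CPM in shControl cells. All shTRIM21 libraries were lower, with replicate 2 the lowest of them. SLC36A4 fell to 76.4% (log2 fold change -0.39, SE 0.09, adjusted p = 0.00990, edgeR). Without shTRIM21 replicate 2 the log2 fold change was -0.31 and the adjusted p 0.0749 (edgeR), so the call was lost without that library. The remaining shTRIM21 libraries still lay below every shControl library. In that leave-out 673 genes passed, against 1272 with all libraries. SLC36A1, or PAT1, which moves small neutral amino acids with protons at the lysosome and cell surface, ran from 19.9 to 28.2 CPM in shTRIM21 cells and from 21.9 to 27.4 CPM in shControl cells, with overlapping groups and a log2 fold change of -0.08 (adjusted p = 0.772, edgeR).

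The 3′ untranslated regions of SLC16A10 and SLC7A6 both hold the 7 letters AGTGGAA, which were picked earlier from the fold changes of these same libraries, so their presence is a description and no test. The sites are shown because they are a sequence that called members share and the rule did not use. They were read from the longest 3′ untranslated region annotated by GENCODE 29 (GRCh38), on the gene's strand, 5′ to 3′, with the 7 letters in capitals. That region was the longest of any coding transcript of the gene, so it can include bases that are coding in another transcript. For SLC16A10 it has 8959 bases, and the longest transcript has 10051. Whether each site lies past the stop codon of the full coding transcript was not checked. The 2 sites of SLC16A10 lie at chr6:111222583-111222609 and chr6:111224135-111224161. The 3 sites of SLC7A6 lie at chr16:68298690-68298716, chr16:68300459-68300485 and chr16:68301077-68301103.
SLC16A10 site 1: tttggttaggAGTGGAAatattttgtt
SLC16A10 site 2: aggctgaggtAGTGGAAggattgcttg
SLC7A6 site 1: aggctgcacaAGTGGAAgcaactaatt
SLC7A6 site 2: aacattactcAGTGGAAagctaagttc
SLC7A6 site 3: tcctactgtaAGTGGAAaagactcact

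Sites were also present in the regions read for 4 members that did not pass the test, SLC7A5, SLC7A11, SLC38A2 and SLC38A6, of which the first 3 are shown. The SLC38A6 site, at chr14:60981622-60981648, lies close to the gene start at 60981114. Its region has 2513 bases, and the longest transcript of the gene has 2787. That site is therefore unlikely to lie in the 3′ untranslated region of the full coding transcript. SLC7A5 has 1 on the minus strand at chr16:87832414-87832440, SLC7A11 has 1 on the minus strand at chr4:138170190-138170216, and SLC38A2 has 1 on the minus strand at chr12:46360092-46360118.
SLC7A5 site: gggtttgcagAGTGGAAactcagccgt
SLC7A11 site: atatatatatAGTGGAActtacaaatg
SLC38A2 site: tgcttccagcAGTGGAAaatgggcatt
In all, the letters were found in 7 of the 25 tested members (28.0%), SLC38A6 included, against 2222 of 11880 tested genes with an annotated region (18.7%). The regions of all genes were chosen in the same way. Of the 4 members that fell, 3 held them, and SLC36A4 did not. Over all tested genes they were present in 42.8% of the 605 that fell, 15.9% of the 555 that rose and 17.5% of the 10720 that did not pass. Because the letters were picked from these same fold changes, a larger share among the genes that fell was built in. Neither that share nor the 3 of 4 members is a test. The length of the region, which sets how often any 7 letters occur, was not held equal in these shares.

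The third member whose sequence held AGTGGAA and whose level fell was SLC7A2. SLC7A2, or CAT-2, is a carrier for arginine, lysine and ornithine, and lies on chromosome 8 from 17497088 to 17570573 (GRCh38, plus strand). SLC7A2 was at 83.0, 96.7 and 94.8 CPM in shTRIM21 cells, against 114, 118 and 118 CPM in shControl cells. Each shTRIM21 library was below each shControl library, and replicate 1 was the lowest. SLC7A2 fell to 78.4% of the shControl level (log2 fold change -0.35, SE 0.07, adjusted p = 0.00460, edgeR). Its relative SLC7A1, or CAT-1, which carries the same cationic amino acids and is used by most dividing cells, was at 186, 197 and 176 CPM in shTRIM21 cells and 194, 189 and 180 CPM in shControl cells. The SLC7A1 groups overlapped, with a log2 fold change of -0.01 and a 95% interval from -0.15 to 0.13 (adjusted p = 0.949, edgeR).

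**Figure D2:**
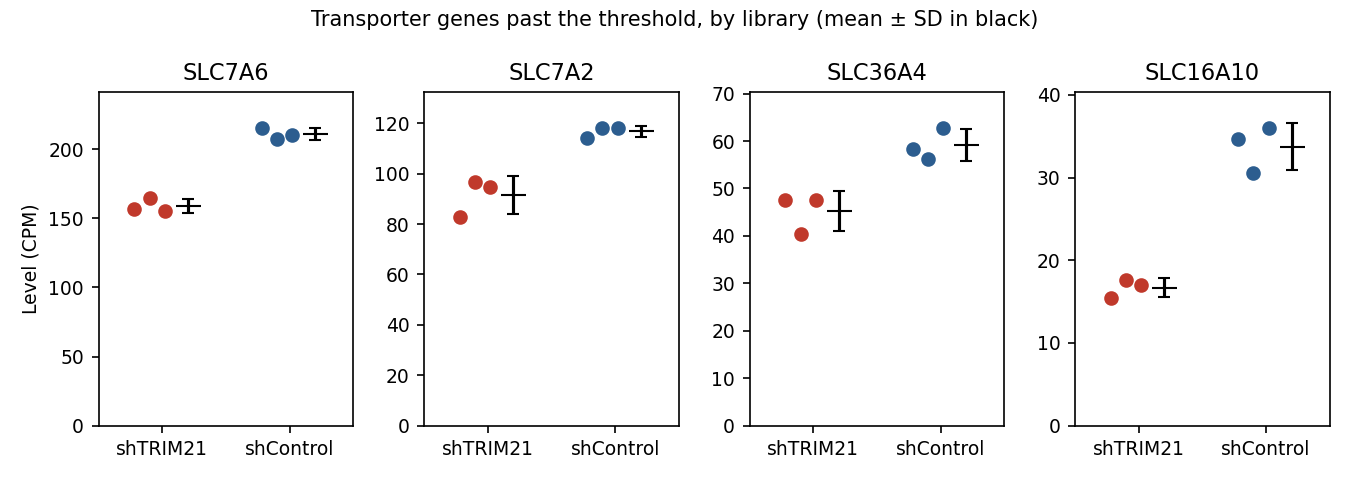
CPM in each of the 3 shTRIM21 and 3 shControl libraries for the 4 transporters that passed the test. In all 4 panels the shTRIM21 libraries lie below the shControl libraries, from SLC16A10 at 49.4% to SLC7A2 at 78.4% of the shControl level.

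The heavy chain SLC3A2, also known as CD98 or 4F2hc, did not pass the test. SLC3A2 was at 86.7, 81.4 and 87.2 CPM in shTRIM21 cells, against 91.0, 87.8 and 74.9 CPM in shControl cells. The groups overlapped, with a log2 fold change of 0.01 (95% interval -0.16 to 0.18, adjusted p = 0.960, edgeR). The other heavy chain, SLC3A1 or rBAT, which pairs with SLC7A9 in kidney and gut, ran from 32.6 to 38.9 CPM in shTRIM21 cells and from 35.7 to 41.1 CPM in shControl cells, with a log2 fold change of -0.12 (adjusted p = 0.503). SLC3A1 shares 29.4% of its exon length with PREPL on the opposite strand, so its level is uncertain in the same way, and its partner SLC7A9 was at 0 in every library.

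Among the light chains of SLC3A2, SLC7A5 (LAT1) brings in leucine and other large neutral amino acids in exchange for glutamine. SLC7A5 was at 135, 113 and 129 CPM in shTRIM21 cells, against 152, 158 and 124 CPM in shControl cells. The groups overlapped because shControl replicate 3 was low, and the log2 fold change of -0.20 (SE 0.09) did not pass (adjusted p = 0.170, edgeR). Without shControl replicate 3 the value was -0.29 with an adjusted p of 0.00885, without replicate 3 of both groups it was -0.31 with an adjusted p of 0.0128, and with the offsets for GC content and length it was -0.27 with an adjusted p of 0.00116. SLC7A5P2, a near-copy pseudogene that can share its reads, was at or below 2.61 CPM in every library.

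SLC7A11, or xCT, exports glutamate and takes up cystine, the source of cysteine for glutathione. SLC7A11 was at 34.8, 38.1 and 44.4 CPM in shTRIM21 cells, against 33.9, 30.8 and 31.3 CPM in shControl cells. The shTRIM21 libraries were all higher, narrowly so for replicate 1, but the log2 fold change of 0.29 (95% interval 0.07 to 0.51) did not pass the adjusted test (adjusted p = 0.0888, edgeR). With the offsets for GC content and length it was 0.39 with an adjusted p of 0.00345. SLC7A7 and SLC7A8, the light chains y+LAT1 and LAT2, were at or below 1.74 CPM in every library, and their 95% intervals ran from -1.48 to 0.68 and from -1.60 to 1.09. SLC7A10, the light chain Asc-1 that exchanges small neutral amino acids such as serine, had 5, 7 and 8 counts in shTRIM21 cells and 5, 2 and 3 counts in shControl cells, and did not pass the filter.

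The summed level of the 5 tested light chains of SLC3A2 was set against SLC3A2 itself, each as CPM per kilobase of exon. This ratio was 3.16, 3.17 and 3.12 in shTRIM21 cells, against 3.66, 3.78 and 3.97 in shControl cells. The size of the ratio depends on the length used, since SLC3A2 has 5178 exon bases and a longest transcript of 2222 bases. SLC7A6 enters the sum and is uncertain through its overlap with SLC7A6OS. The groups did not overlap, and the means were 3.15 ± 0.0238 in shTRIM21 cells and 3.80 ± 0.157 in shControl cells (SD, n = 3 each). A two-sided exact permutation test gave p = 0.1, the smallest that 3 against 3 libraries allow, and 0.175 after Benjamini-Hochberg adjustment over the 7 sums and ratios compared. The ratio of SLC7A5 to SLC3A2 was 1.70, 1.52 and 1.61 in shTRIM21 cells and 1.83, 1.96 and 1.81 in shControl cells. That of SLC7A6 to SLC3A2 was 1.23, 1.38 and 1.21 in shTRIM21 cells and 1.61, 1.61 and 1.91 in shControl cells. Neither ratio overlapped between the groups (exact permutation p = 0.1 for each, adjusted 0.175). All these ratios share SLC3A2 as the denominator, so they are not independent. SLC3A2 was lowest in shControl replicate 3, at 74.9 CPM. SLC7A5, at 124 CPM there, overlapped between the groups before the division. The ratio of SLC7A11 to SLC3A2 was 0.215, 0.252 and 0.273 in shTRIM21 cells and 0.200, 0.188 and 0.224 in shControl cells, with overlapping groups (exact permutation p = 0.2, adjusted 0.28).

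**Figure D3:**
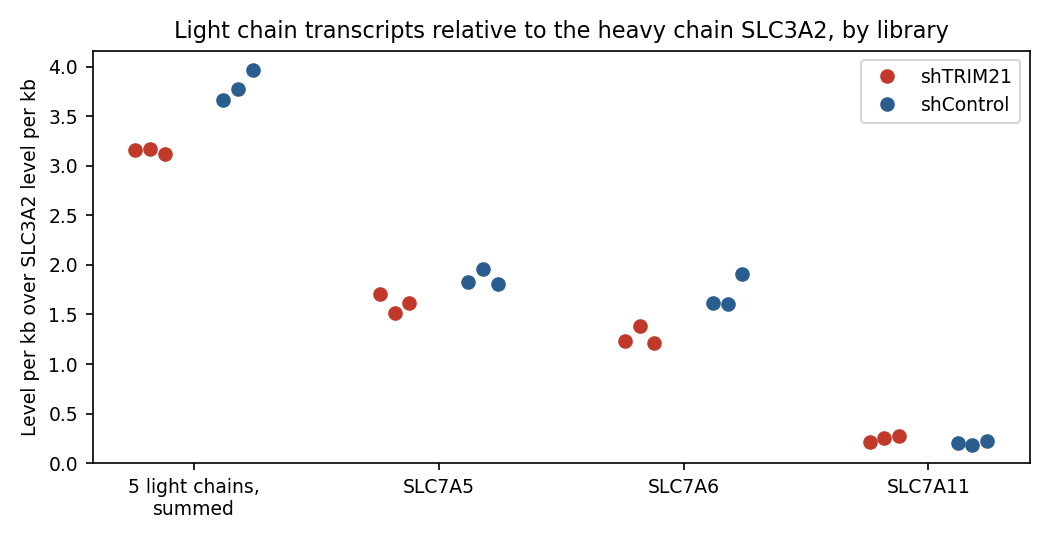
Ratio of light chain to SLC3A2 level (CPM per kilobase of exon, no unit) in each library, shTRIM21 left of shControl. The summed light chains lie at 3.12 to 3.17 in shTRIM21 libraries and at 3.66 to 3.97 in shControl libraries.

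The tested SLC1 carriers, which move glutamate or neutral amino acids, did not pass the test. SLC1A5, or ASCT2, a sodium-dependent exchanger of glutamine and other neutral amino acids, was at 171, 140 and 144 CPM in shTRIM21 cells, against 160, 162 and 143 CPM in shControl cells. Its groups overlapped, with a log2 fold change of -0.03 (95% interval -0.19 to 0.13, adjusted p = 0.861, edgeR). SLC1A4 (ASCT1), which exchanges alanine, serine and cysteine, ran from 22.1 to 26.7 CPM in shTRIM21 cells and from 23.4 to 25.0 CPM in shControl cells (log2 fold change 0.05, adjusted p = 0.843). SLC1A1, a glutamate carrier, averaged 10.2 ± 2.14 CPM in shTRIM21 cells and 11.2 ± 0.957 CPM in shControl cells (SD, n = 3 each, log2 fold change -0.13, adjusted p = 0.705). Both overlapped between the groups. SLC1A3, another glutamate carrier best known from glia, was at or below 0.618 CPM, and the 95% interval of its log2 fold change ran from -1.26 to 1.56.

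The neutral amino acid carriers of the SLC38 family held the most abundant member. SLC38A1, which takes up glutamine and alanine, was at 1127, 1248 and 1237 CPM in shTRIM21 cells, against 1261, 1287 and 1295 CPM in shControl cells. The shTRIM21 libraries were all lower, 1 of them clearly and the others narrowly, and the log2 fold change of -0.09 did not pass (95% interval -0.23 to 0.05, adjusted p = 0.471, edgeR). SLC38A2, the system A carrier that cells raise on amino acid shortage, was at 475, 524 and 505 CPM in shTRIM21 cells and 474, 466 and 493 CPM in shControl cells. Its log2 fold change was 0.07 (adjusted p = 0.542), and 0.14 with an adjusted p of 0.0165 with the offsets for GC content and length. SLC38A6, whose transport role is less settled, was at 5.89, 7.55 and 9.58 CPM in shTRIM21 cells and 5.15, 6.17 and 5.84 CPM in shControl cells (log2 fold change 0.42, SE 0.21, adjusted p = 0.237).

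SLC38A5, a system N carrier of glutamine and histidine, ran from 57.6 to 63.2 CPM in shTRIM21 cells and from 57.9 to 68.5 CPM in shControl cells (log2 fold change -0.06, adjusted p = 0.748, edgeR). SLC38A10, a member of the same family, ran from 15.5 to 18.1 CPM in shTRIM21 cells and from 12.2 to 20.04 CPM in shControl cells (log2 fold change 0.11, adjusted p = 0.740). The groups overlapped for both. At the lysosome, SLC38A9 exports leucine and reports arginine to mTORC1, and SLC38A7 exports glutamine. SLC38A9 was at 22.1, 25.5 and 22.7 CPM in shTRIM21 cells and 23.9, 21.7 and 25.9 CPM in shControl cells (log2 fold change -0.02, adjusted p = 0.929). Its groups overlapped, as did those of SLC38A7. SLC38A7 averaged 38.8 ± 5.71 CPM in shTRIM21 cells and 35.6 ± 5.40 CPM in shControl cells (SD, n = 3 each, adjusted p = 0.588).

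The facilitators SLC43A1 and SLC43A2, or LAT3 and LAT4, let large neutral amino acids such as leucine through without an ion gradient. SLC43A2 was at 8.67, 6.20 and 6.61 CPM in shTRIM21 cells, against 5.85, 4.33 and 4.31 CPM in shControl cells. Every shTRIM21 library was higher, and the log2 fold change of 0.57 (95% interval 0.12 to 1.02) did not pass the adjusted test (adjusted p = 0.111, edgeR). SLC43A1 ran from 11.2 to 17.4 CPM in shTRIM21 cells and from 14.0 to 16.6 CPM in shControl cells, with a log2 fold change of -0.02 (adjusted p = 0.963). SLC43A3, which carries nucleobases in spite of its family, and SLC38A4 had at most 10 counts in any library and were not tested.

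The members differed far more from each other in level than between the groups. Over all 6 libraries the mean level per kilobase was 124.0 CPM per kilobase for SLC38A1, 74.1 for SLC38A2, 46.0 for SLC1A5, 28.5 for SLC7A5, 24.4 for SLC7A6, 24.3 for SLC7A1, 16.4 for SLC3A2, 15.1 for SLC38A5 and 13.2 for SLC7A2. These 9 members held 89.4% of the summed level, and the first 3 alone held 59.6%. The order of the first 3 and of the third against SLC7A5 was the same in all libraries, with no overlap of their ranges. Ranges overlapped between neighbours among SLC7A5, SLC7A6 and SLC7A1, and among SLC3A2, SLC38A5 and SLC7A2, so their order is not resolved. Order and shares also depend on the length used. SLC3A2 and SLC3A1 have 5178 and 6541 exon bases but longest transcripts of 2222 and 2989 bases, so by that length both would stand higher. The next member, SLC3A1, was at 5.57 CPM per kilobase, followed without a gap between neighbours by SLC36A4, SLC38A7, SLC43A1, SLC7A11, SLC1A4, SLC36A1, SLC1A1, SLC38A9, SLC16A10, SLC38A10 and SLC38A6, down to 1.301 CPM per kilobase. SLC16A10, the member with the largest fold change, was thus among the lower ones, at 2.24 CPM per kilobase. SLC43A2 at 0.565 and SLC7A7 at 0.249 CPM per kilobase came next, each below the range before it.

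Summed over the members, the level was 395, 400.3 and 400.1 CPM per kilobase in shTRIM21 cells, against 423, 426 and 412 CPM per kilobase in shControl cells. The groups did not overlap, and the means of 398.5 ± 2.93 in shTRIM21 cells and 420.3 ± 7.46 in shControl cells differed by -0.08 on the log2 scale (SD, n = 3 each). The two-sided exact permutation p was 0.1, the smallest possible, and 0.175 after Benjamini-Hochberg adjustment over the 7 sums and ratios. SLC7A6, uncertain through SLC7A6OS, entered the sum at means of 20.9 in shTRIM21 cells and 27.8 in shControl cells. SLC38A1, which did not pass the test, entered it at 120.2 and 127.9. In a bulk sample fewer cells that express a carrier and less RNA per cell cannot be told apart.

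**Figure D4:**
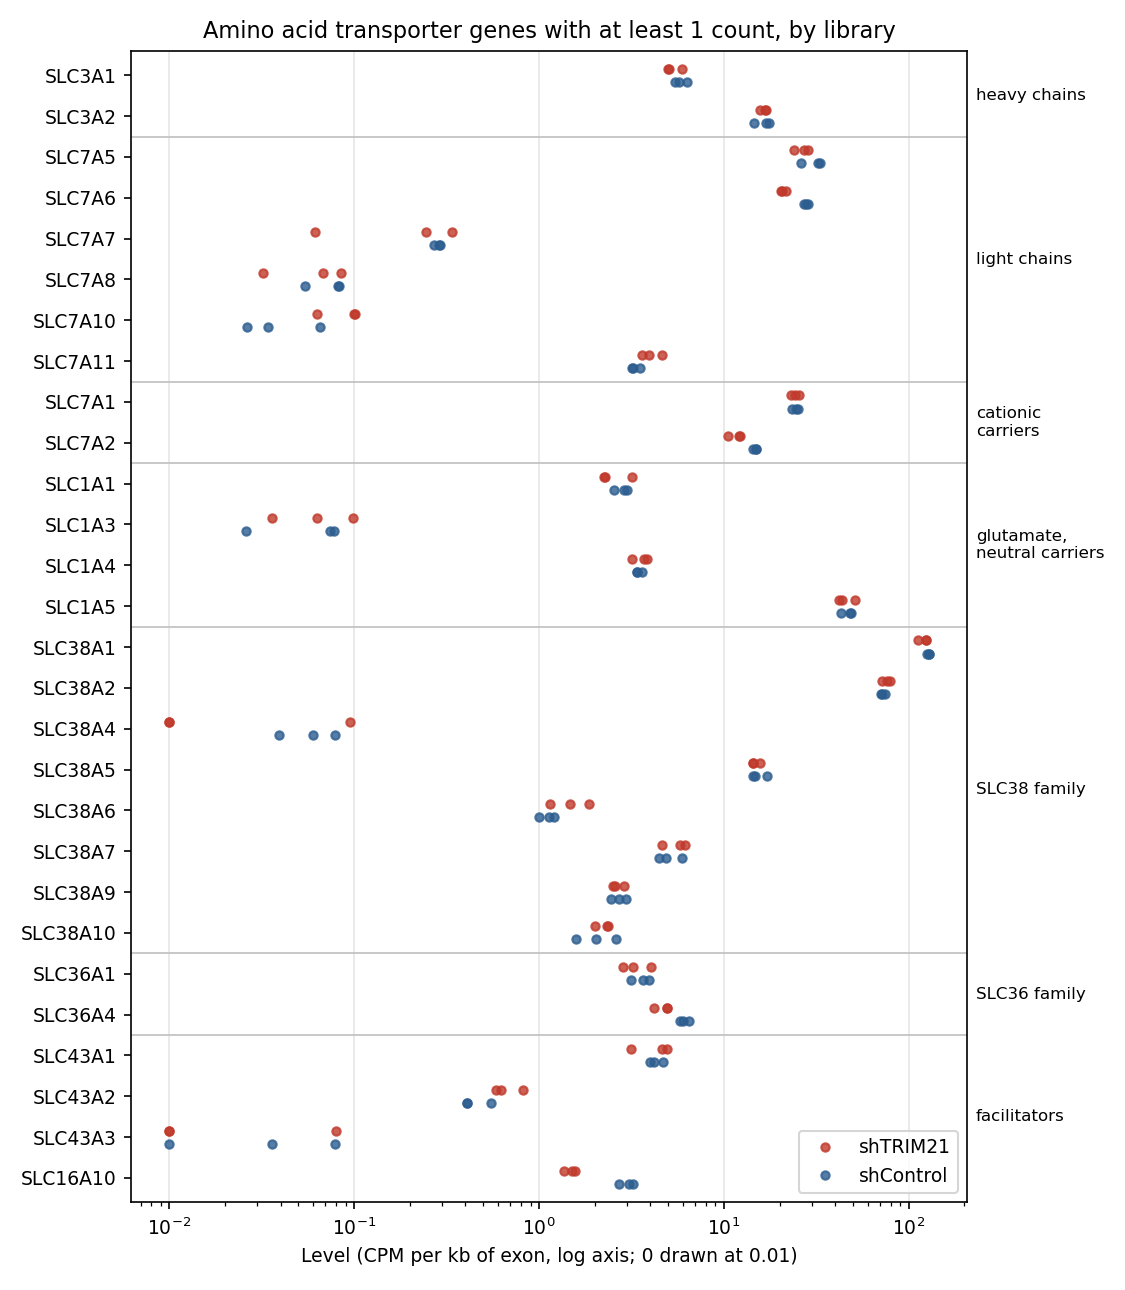
Level of each amino acid transporter with counts as CPM per kilobase of exon on a log axis, 1 point per library, shTRIM21 and shControl marked. SLC38A1 leads at a mean of 124.0 CPM per kilobase, and 9 members reach 10 CPM per kilobase or more.

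A count of 0 in all 6 libraries was recorded for 13 members. They are the glutamate carriers SLC1A2, SLC1A6 and SLC1A7, SLC36A2 and SLC36A3 of the SLC36 family, SLC38A3, SLC38A8 and SLC38A11 of the SLC38 family, the light chains SLC7A9 and SLC7A13, the cationic carrier SLC7A3, and its relatives SLC7A4 and SLC7A14. In the single libraries 3 counts, the most that a count of 0 allows, correspond to 0.107 to 0.135 CPM, for counting error only. The table lists 9276 of its 28278 symbols at 0 throughout, among them CANX, RPL7A, ZYX, TJP1 and NDUFS1, which most cells express, so a member listed at 0 is not read as absent.

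Many amino acid carrier genes are induced by ATF4, which binds with C/EBP partners to a composite element. The core TGATGNAA was searched on both strands in promoter windows of 300 bases, 250 before and 50 after the annotated start (RefSeq, GRCh38.p14), and is shown because it is the best known shared element of these genes. A window was given for 22 of the 25 tested members, and none for SLC3A1, SLC7A11 and SLC7A2, the last of which fell. A gene can have several windows at alternative starts, and it was counted if any of its windows held the core. The core was found in 6 of the 22 (27.3%), against 299 of 10513 tested genes (2.84%), and none of the 6 passed the test. Some matches lie at alternative starts. That of SLC1A3 lies before the GENCODE gene start at chr5:36606355, and that of SLC3A2 lies far inside the gene, which starts at chr11:62856102. The sequences are written 5′ to 3′ on the gene's strand, with the match in capitals. They lie at chr2:64989381-64989410 (plus strand) for SLC1A4, chr5:36596357-36596386 (plus) for SLC1A3, chr11:62881725-62881748 (plus) for SLC3A2, chr12:46266502-46266531 (minus) for SLC38A1, chr13:29595663-29595692 (minus) for SLC7A1 and chr19:46784893-46784922 (minus) for SLC1A5. SLC1A4 and SLC3A2 hold the core on the opposite strand.
SLC1A4: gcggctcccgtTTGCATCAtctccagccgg
SLC1A3: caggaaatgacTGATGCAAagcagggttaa
SLC3A2: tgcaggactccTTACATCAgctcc
SLC38A1: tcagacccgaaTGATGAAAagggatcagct
SLC7A1: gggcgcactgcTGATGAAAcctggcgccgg
SLC1A5: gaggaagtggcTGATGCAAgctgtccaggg
Over all tested genes with a window, the core was present in 3.96% of the lower genes, 3.29% of the higher genes and 2.76% of the genes that did not pass. SLC16A10, SLC7A6 and SLC36A4 held no TGATGNAA in any window. A second core, TGACNNNGC of the antioxidant element, was searched in the same way. It was found in 7 of the 22 members (31.8%), of which only SLC7A6 passed the test, against 2005 of 10513 tested genes (19.1%).

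ATF4 was at 216, 215 and 233 CPM in shTRIM21 cells, against 227, 221 and 230 CPM in shControl cells, and did not pass the test (log2 fold change -0.03, 95% interval -0.16 to 0.10, adjusted p = 0.808, edgeR). Of 15 listed regulators of transporter transcription, all tested, 0 rose, 1 fell and 14 did not pass. Over all tested genes 4.43% rose and 4.66% fell. The median log2 fold change of the 15 regulators was 0.07. The one that fell was CEBPG, a C/EBP partner of ATF4, at 73.7 ± 5.40 CPM in shTRIM21 cells and 93.4 ± 5.69 CPM in shControl cells (SD, n = 3 each, log2 fold change -0.34, adjusted p = 0.00931). Without shTRIM21 replicate 1 its adjusted p was 0.0508. MYC, which raises glutamine carriers, had a log2 fold change of 0.19 (adjusted p = 0.0558), and TRIB3, a target and inhibitor of ATF4, one of 0.32 (adjusted p = 0.0971). NFE2L2, the antioxidant factor that acts on SLC7A11, had -0.18 (adjusted p = 0.170).

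Of 23 amino acid carriers from other families, 17 were tested, of which 0 rose, 2 fell and 15 did not pass. Over all tested genes 4.43% rose and 4.66% fell. The 17 carriers had a median log2 fold change of 0.04. SLC6A6, the taurine carrier, was at 58.3 ± 0.860 CPM in shTRIM21 cells and 72.6 ± 1.29 CPM in shControl cells (SD, n = 3 each, log2 fold change -0.32, adjusted p = 0.0105, edgeR). SLC25A13, the mitochondrial carrier of aspartate and glutamate, was at 47.6 ± 1.43 CPM in shTRIM21 cells and 60.9 ± 5.41 CPM in shControl cells (log2 fold change -0.36, adjusted p = 0.0130). Neither call held in every leave-out: SLC6A6 had an adjusted p of 0.0542 without shTRIM21 replicate 2, and SLC25A13 had 0.0546, 0.0504 and 0.0502 without shTRIM21 replicates 1, 2 and 3.

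Of 34 genes listed for amino acid sensing at mTORC1, 31 were tested, of which 5 rose, 0 fell and 26 did not pass. Over all tested genes 4.43% rose and 4.66% fell. The 31 sensing genes, a list chosen with earlier results known, had a median log2 fold change of 0.09. RRAGC, a Rag GTPase that brings mTORC1 to the lysosome, was at 44.1, 42.6 and 46.2 CPM in shTRIM21 cells, against 30.5, 30.6 and 31.4 CPM in shControl cells. RRAGA, its dimer partner, was at 68.0, 66.3 and 72.0 CPM in shTRIM21 cells, against 54.9, 50.9 and 49.0 CPM in shControl cells. Both were higher in every shTRIM21 library, with log2 fold changes of 0.52 (SE 0.09, adjusted p = 0.000958) and 0.41 (SE 0.08, adjusted p = 0.00276, edgeR). SESN1, a sestrin that inhibits mTORC1, FNIP2, a folliculin partner, and LAMTOR5, a Ragulator subunit, rose by 0.44, 0.32 and 0.34 on the log2 scale with adjusted p of 0.0499, 0.0471 and 0.0329. The calls of SESN1 and FNIP2 were lost in 8 of the alternatives and that of LAMTOR5 in 5, while RRAGA and RRAGC kept theirs in all.

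**Figure D5:**
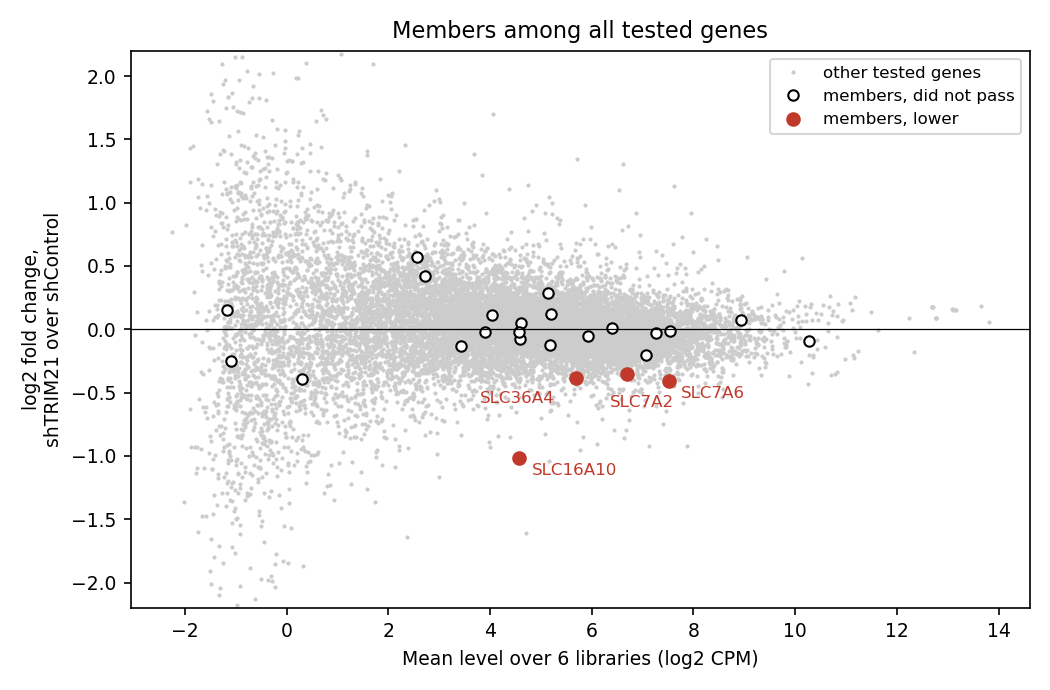
Log2 fold change (shTRIM21 over shControl) against mean level for all 14002 tested genes, with the 25 tested amino acid transporters marked; 20 genes lie beyond the vertical axis. SLC16A10 at -1.02 stands lowest among the transporters, most of which lie near 0.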

How the data were processed

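RNA of 3 shTRIM21 and 3 shControl HCT116 libraries was sequenced, and the authors deposited raw read counts per gene symbol. Tools named in the submitters' processing notes include limma 3.52.2, edgeR 3.38.1 and TopHat2 2.1.1. No source used here names the counting tool, its strand setting or the annotation, and reads that map to several copies or to overlapping genes may have been split or dropped. Library totals ran from 22656160 to 27123657 counts.

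Here genes were filtered with filterByExpr, scaled by TMM and tested with edgeR's quasi-likelihood test on group alone, over 14002 genes, with Benjamini-Hochberg adjustment and a threshold of 0.05. Levels between genes are CPM per kilobase of GENCODE 29 exon union. Ratios were compared with a two-sided exact permutation test. Intervals and floors cover counting error or the spread between libraries only. The fit had no replicate block. The scripts were tested on simulated data. An added alternative, chosen after seeing the data, offset GC content and length. The others were RLE scaling, no filter, DESeq2, limma-voom, leaving out the 20 most abundant genes, leaving out libraries, and a replicate block.

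The members and lists were chosen with earlier results of these data known. The rule for named genes took every member that passed, the 10 most abundant members per kilobase that did not, every gene of the lists that passed, and TRIM21. The remaining members, the marker and neighbour genes, and ATF4, MYC, TRIB3 and NFE2L2 were named after their values were seen.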

Additional observations from a re-analysis of the deposited data

How the results depend on the processing

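The number of genes that passed was 1261 with RLE scaling, 1609 with no filter, 1545 with DESeq2, 1198 with limma-voom, 1370 without the 20 most abundant genes, 1459 without replicate 3 of both groups and 1843 with the GC and length offsets, against 1272 as reported. Leaving out libraries gave 602 to 1737. With the replicate block 1699 genes and the same 4 members passed. Deviations of same-numbered libraries correlated at 0.08, 0.01 and 0.09, and those of differently numbered libraries at -0.10 to 0.04. Replicates 1 and 3 correlated best with the same number, while shControl replicate 2 correlated best with shTRIM21 replicate 1. All values were small and the labels name no shared batch, so the numbers were not taken to pair the libraries. A batch shared by number cannot be told from these values. The same 4 members passed under RLE, no filter, DESeq2, limma-voom and without the 20 most abundant genes. Leave-outs passed 3 to 5 members, and the GC and length offsets passed 7. SLC16A10, SLC7A6 and SLC7A2 passed in every alternative. Of the 25 members 13 kept their direction everywhere. The other 12 did not, and none of them passed as reported. Over the fits that left out 1 library their log2 fold changes ran from -0.26 to 0.43 for SLC1A3, -0.0070 to 0.12 for SLC1A4, -0.12 to 0.025 for SLC1A5, -0.23 to 0.027 for SLC36A1, -0.047 to 0.30 for SLC38A10, -0.10 to 0.022 for SLC38A5, -0.090 to 0.047 for SLC38A9, -0.064 to 0.066 for SLC3A2, -0.14 to 0.16 for SLC43A1, -0.051 to 0.028 for SLC7A1, -0.90 to 0.048 for SLC7A7 and -0.57 to 0.060 for SLC7A8. Without replicate 3 of both groups SLC38A9 was at 0.072, SLC3A2 at -0.079, SLC43A1 at 0.11, SLC7A1 at 0.0080, SLC7A8 at 0.17 and SLC38A10 at -0.078. With the GC and length offsets SLC38A9 was at 0.020, SLC3A2 at -0.096 and SLC7A1 at 0.0036. The cause was not tested. The log2 light chain ratio of -0.27 ran from -0.30 to -0.23 over the leave-outs, and was -0.28 with the longest transcript as length. With 3 libraries a group, members under about 1 CPM are limited by counts.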
